A study of Homo sapiens with 13 samples.

Results

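Control cells that carried a luciferase reporter were compared with control cells that did not, on 4 of the 13 Affymetrix arrays of a study of bone metastasis by human non-small cell lung carcinoma. The 4 arrays were chosen by their labels alone: 2 hold control cells with the reporter, biological replicates 1 and 2, and 2 hold control cells without it, with the same replicate numbers. The other 9 arrays hold the bone-seeking lines M1, M4 and M5, with 3 biological replicates each, which came from control cells injected into the hearts of mice. Both kinds of control were non-metastatic cells with no further treatment named, and the labels name neither the parent line nor the way the reporter was introduced. Each array received RNA pooled from 3 groups of cells, and the p-values below speak only of the scatter among these arrays.

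Firefly luciferase is an enzyme that emits light as it oxidises luciferin, and cells that express it can be followed by imaging in a living animal. It belongs to the same enzyme superfamily as the acyl-CoA synthetases, which activate fatty acids. The titles of the arrays do not say which luciferase was used. A reporter is usually introduced by a vector and followed by selection of the cells that carry it. The reporter's own transcript was not measured here, and no value checks the labels that say which cells carried it.

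The controls showed the keratins of epithelial cells. KRT8 lay between 10.4 and 10.6 log2 units and KRT18 between 12.5 and 12.7 on the 4 control arrays, whose median gene signal was 6.18 to 6.21. The epithelial adhesion genes EPCAM and CDH1 lay below the lower quartile of each of these arrays, which was 4.46 to 4.54, and so did PTPRC, CD3E and TYROBP of blood cells, CDH5 and VWF of endothelium and LUM of fibroblasts. Other markers of these cells lay above that quartile on each control array, with COL1A1 at 6.80 to 7.28, COL1A2 at 4.91 to 5.14 and DCN at 4.86 to 5.35 for fibroblasts and HBB at 4.62 to 5.02 for red cells, while CD14 and PECAM1 lay below it on 3 of the 4. Affymetrix control probe sets, which report spiked-in transcripts and RNA quality, placed both first replicates in one array group and both second replicates in another. The labels record no batch, so a difference between those array groups and a difference between the replicate numbers cannot be told apart among the controls.

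The cells with and without luciferase were close to each other. Within a replicate number the median absolute difference between the 2 kinds was 0.12 log2 units for replicate 1 and 0.11 for replicate 2. The distance between replicates was larger, at 0.155 for the 2 arrays with luciferase and 0.148 for the 2 without it. Of the sum of squares among the 4 arrays, 55.3% lay between replicate numbers, 27.6% between cells with and without luciferase, and 17.1% in the remainder. The mean difference was under 1.2-fold for 92.6% of 11963 genes, and the central 95% of differences ran from -0.30 to 0.30 on the log2 scale. Genes with a mean difference of at least 2-fold numbered 2 higher and 10 lower with luciferase.

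Testing used limma's moderated statistic on the deposited log2 signals, and a gene was called where its p, adjusted by Benjamini-Hochberg across the 11963 genes, was under 0.05. With 5 group means over all 13 arrays and no block, 0 genes were called, which is 0% of those tested, and 154, or 1.29%, had an unadjusted p under 0.05. With the 4 array groups as a block, 2 genes were called, 0.0167% of those tested, both lower with luciferase, and 709, or 5.93%, had an unadjusted p under 0.05. With the replicate number as a block over the 4 control arrays alone, 16 genes were called, or 0.134%, 4 higher (0.0334%) and 12 lower (0.100%), and 1084, or 9.06%, had an unadjusted p under 0.05. That last fit has 1 residual degree of freedom and leans on a spread shared across genes. Of its 16 genes, 11 also had an unadjusted p under 0.05 without any block. Both fits take the same difference from the same 4 control arrays, so this overlap is not an independent check. A difference below is called higher or lower with luciferase by its values, and its tests are given beside it.

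**Figure D1:**
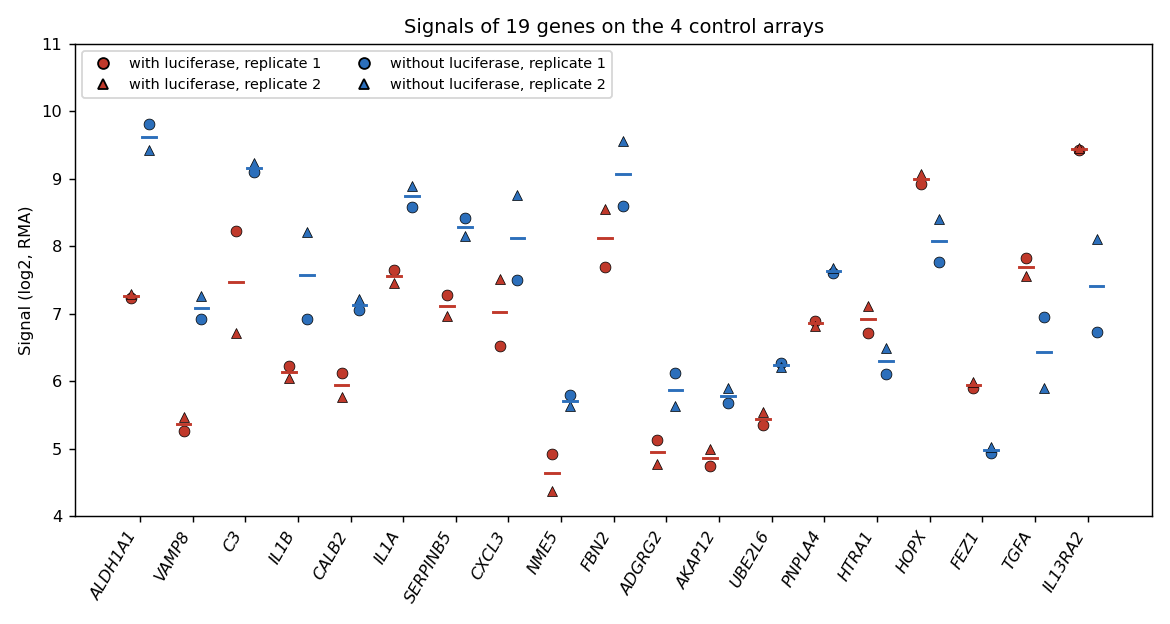
Log2 RMA signal of 19 genes on each control array, with cells carrying luciferase in red to the left and cells without it in blue to the right, circles for replicate 1, triangles for replicate 2 and bars for means of 2 arrays. The genes run along the horizontal axis from the largest mean decrease, ALDH1A1, to the largest mean increase, IL13RA2. In CXCL3 the 2 kinds overlap, because the array with luciferase at 7.52 lies above the array without it at 7.50.

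ALDH1A1 showed the largest difference of the 11963 genes. It encodes a cytosolic aldehyde dehydrogenase that oxidises retinaldehyde to retinoic acid, and its activity is widely used as a marker of stem-like tumour cells. Its signal was 7.23 and 7.29 on the 2 arrays with luciferase, against 9.82 and 9.42 on the 2 arrays without it. The 2 kinds did not overlap, and the gap between them was several times the gap within either kind. The mean signal was 5.13-fold lower with luciferase, a log2 difference of -2.36 with a standard error of 0.13 and a limma adjusted p of 1.49e-05 with array groups as a block. Without a block the standard error was 0.52 and the adjusted p was 1.00. In the metastatic lines ALDH1A1 averaged 9.32 ± 0.88 in M1, 11.1 ± 0.90 in M4 and 11.0 ± 0.14 in M5 (log2, SD, n = 3 each). The control means were 7.26 with luciferase and 9.62 without it. All 9 metastatic arrays lay above both arrays with luciferase, while 7 lay above and 2 below both arrays without it.

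The ALDH1A1 promoter is shown because this gene carries the largest difference. This RefSeq window of 250 bases before and 50 after the start site lies at chr9:72953004-72953303, minus strand, GRCh38.p14, and capitals mark a CCAAT motif in the gene's own direction, which begins 74 bases before the start site. CCAAT was searched on both strands, and 34.6% of 35116 promoters of this length hold it.
ALDH1A1: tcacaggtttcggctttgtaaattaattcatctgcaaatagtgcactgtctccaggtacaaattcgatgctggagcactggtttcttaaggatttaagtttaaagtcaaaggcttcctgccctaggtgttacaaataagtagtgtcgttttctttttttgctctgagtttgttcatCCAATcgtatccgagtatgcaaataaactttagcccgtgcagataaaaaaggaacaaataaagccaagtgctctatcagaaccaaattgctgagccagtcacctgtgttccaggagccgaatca

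VAMP8 was the other gene called with array groups as a block. It encodes a SNARE protein of endosomes that acts in membrane fusion, regulated secretion and autophagy. Its signal was 5.26 and 5.47 with luciferase, against 6.91 and 7.26 without it, and the arrays with luciferase lay below the median gene while those without it lay above. The signal was 3.30-fold lower with luciferase, by a log2 difference of -1.72 ± 0.16 (SE; limma adjusted p = 0.00161 with array groups, against 0.145 without a block). Leaving out 1 array ended the call in 3 of 4 fits: the adjusted p was 0.133 without the first array with luciferase, 0.0597 without the second and 0.0683 without the second array that lacked it, against 0.0169 without the first that lacked it. The log2 difference was -1.54 to -1.90 in these fits. ALDH1A1 was called in each of these 4 fits. VAMP8 averaged 6.88 ± 0.27 in M1, 6.07 ± 0.35 in M4 and 4.59 ± 0.29 in M5 (SD, n = 3 each), so M1 and M5 lay on opposite sides of the cells with luciferase.

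Other aldehyde dehydrogenases and retinoid genes did not share the size of the ALDH1A1 difference. The list held 30 measured genes, of which 1 was called with array groups as a block, ALDH1A1 itself. Over all genes 0.0167% were called in that fit. On 4 of them both arrays with luciferase lay above both without it and on 3 they lay below, a share of 13.3% and 10.0% against 15.0% and 13.4% of all genes. The mitochondrial enzyme ALDH2, which clears acetaldehyde, was at 5.56 and 5.36 with luciferase and 6.0 and 5.95 without it, and was not called in any of the 3 fits. CYP26B1, which degrades retinoic acid, was 1.34-fold higher, but its signal was below the lower quartile on 3 of the 4 arrays. ALDH18A1, an enzyme of proline synthesis, differed by only 0.25 log2 units.

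Of 37 measured NF-kappaB targets and inflammatory cytokines, 19 were lower with luciferase in both pairs, 6 were higher in both and the rest changed sign, against 25.5% lower and 29.9% higher over all genes. NF-kappaB is a transcription factor that is activated by interleukin-1 and by microbial products, and its targets include IL1A, IL1B and the neutrophil-attracting chemokines CXCL2 and CXCL3, so that interleukin-1 can sustain its own production. IL1A was at 7.65 and 7.46 with luciferase, against 8.58 and 8.89 without it. The difference was 2.27-fold, with differences of -0.93 and -1.44 in the 2 pairs, and an adjusted p of 0.00809 with the replicate block, 0.785 with array groups and 1.00 without a block in limma. A second IL1A probe set, with a mean of 3.93 with luciferase and 4.01 without it, differed by only -0.022 and -0.13. IL1B was at 6.22 and 6.05 with luciferase, against 6.92 and 8.21 without it. IL1B differed less in the first pair, by -0.70, than in the second, by -2.16, and was not called in any fit. A second IL1B probe set gave -0.72 and -1.89.

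The chemokine CXCL3 was at 6.52 and 7.52 with luciferase, against 7.50 and 8.76 without it. Here replicates of one kind lay about as far apart as the kinds did, so that the kinds overlapped, but the difference was alike in both pairs, at -0.98 and -1.24 (adjusted p = 0.00763 with the replicate block, 0.829 with array groups, 1.00 without a block). Its neighbour CXCL2 was brighter, at 9.65 and 10.61 with luciferase against 10.24 and 11.15 without it, and differed by -0.59 and -0.54 with no call. Leaving out 1 control array, which breaks a pair, gave -0.48 to -1.73 for CXCL3 and -0.085 to -1.05 for CXCL2. IL6, a cytokine of inflammation and bone resorption, was at 9.02 and 9.74 with luciferase against 9.35 and 10.45 without it, and its mean difference of -0.52 turned to 0.028 without the second array that lacked luciferase. CXCL2 was chosen after its values were seen.

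The promoters of CXCL3 and CXCL2 are shown because these neighbouring genes differed in the same direction and carry the same stretch. They lie at chr4:74038640-74038939 and chr4:74099146-74099445, both on the minus strand of GRCh38.p14, in RefSeq windows of the same length as above. Capitals mark 11 bases that hold the NF-kappaB consensus on both strands, as overlapping matches that begin 79 and 78 bases before the start site in CXCL3 and 78 and 77 bases before it in CXCL2. The consensus, searched on both strands, occurs in 5.91% of 35116 promoters. The windows of IL1A, IL1B and VAMP8 do not hold these letters.
CXCL3: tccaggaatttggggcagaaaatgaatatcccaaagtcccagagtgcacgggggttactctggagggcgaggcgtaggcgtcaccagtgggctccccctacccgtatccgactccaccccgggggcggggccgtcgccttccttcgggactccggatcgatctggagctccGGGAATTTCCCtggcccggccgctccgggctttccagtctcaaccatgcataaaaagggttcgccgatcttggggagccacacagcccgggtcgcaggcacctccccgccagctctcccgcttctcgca
CXCL2: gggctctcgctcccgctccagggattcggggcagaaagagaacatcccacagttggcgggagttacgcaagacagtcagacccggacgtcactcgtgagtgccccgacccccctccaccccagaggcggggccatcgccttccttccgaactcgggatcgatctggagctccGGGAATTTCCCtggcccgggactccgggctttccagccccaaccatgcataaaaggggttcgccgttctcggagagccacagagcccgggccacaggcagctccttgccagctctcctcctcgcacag

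Over the 37 measured NF-kappaB targets and inflammatory cytokines, both arrays with luciferase lay below both without it for 10 genes, or 27.0%, against 13.4% of all genes. They lay above for 2, or 5.41%, against 15.0% of all genes. This list and the others were chosen with earlier results of these data known, so their shares describe the lists and test nothing. The list's median difference was -0.0738 in the first pair and -0.151 in the second, against 0.00483 and 0.0123 over all genes. With the replicate block 2 of the 37 were called, IL1A and CXCL3, against 0.134% of all genes. With array groups or no block 0 of the 37 were called, against 0.0167% and 0% of all genes. SDC4, a heparan sulphate proteoglycan of focal adhesions, differed by -0.40 and -0.70 without a call. The complement component C3, a protein of innate immunity, was at 8.22 and 6.71 with luciferase, against 9.10 and 9.23 without it. Its arrays with luciferase differed from each other by more than the first pair did, and it was called in no fit.

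IL13RA2 showed the largest difference in the other direction. It encodes a decoy receptor that binds interleukin-13 with high affinity and is found on many tumours. Its signal was 9.43 and 9.45 with luciferase, against 6.73 and 8.11 without it. The arrays with luciferase were nearly equal while those without it were spread over more than a log2 unit, and the kinds did not overlap. The mean difference was 4.08-fold, or 2.03 log2 units, with an adjusted p of 0.0147 with the replicate block, 0.313 with array groups and 1.00 without a block. M1 averaged 9.85 ± 0.09 and M5 9.34 ± 0.08, near the cells with luciferase, whereas M4 averaged 5.51 ± 0.96, below every control array (SD, n = 3 each).

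TGFA, a ligand of the epidermal growth factor receptor, was at 7.83 and 7.55 with luciferase, against 6.95 and 5.90 without it. It was 2.41-fold higher, and its other probe sets, with dimmer signals, differed by 0.55 and 0.73 log2 units in the same direction. HOPX, an atypical homeodomain protein of alveolar epithelium, was at 8.92 and 9.07 with luciferase, against 7.76 and 8.41 without it. FEZ1, a kinesin adaptor best known from axons, was at 5.89 and 5.98 with luciferase, against 4.94 and 5.02 without it. A second FEZ1 probe set, with a mean of 4.63 with luciferase and 4.54 without it, differed by only 0.071 and 0.11. By the probe sets that stand for them, the kinds did not overlap for any of these genes, and their adjusted p-values with the replicate block were 0.0215 for TGFA, 0.0427 for HOPX and 0.00809 for FEZ1, with no call in the other fits. Leaving out 1 control array gave log2 differences of 0.74 to 1.79 for TGFA, 0.58 to 1.23 for HOPX and 1.34 to 2.72 for IL13RA2. HTRA1, a secreted serine protease, was 1.54-fold higher with luciferase and not called. FEZ1 was chosen after its values were seen.

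**Figure D2:**
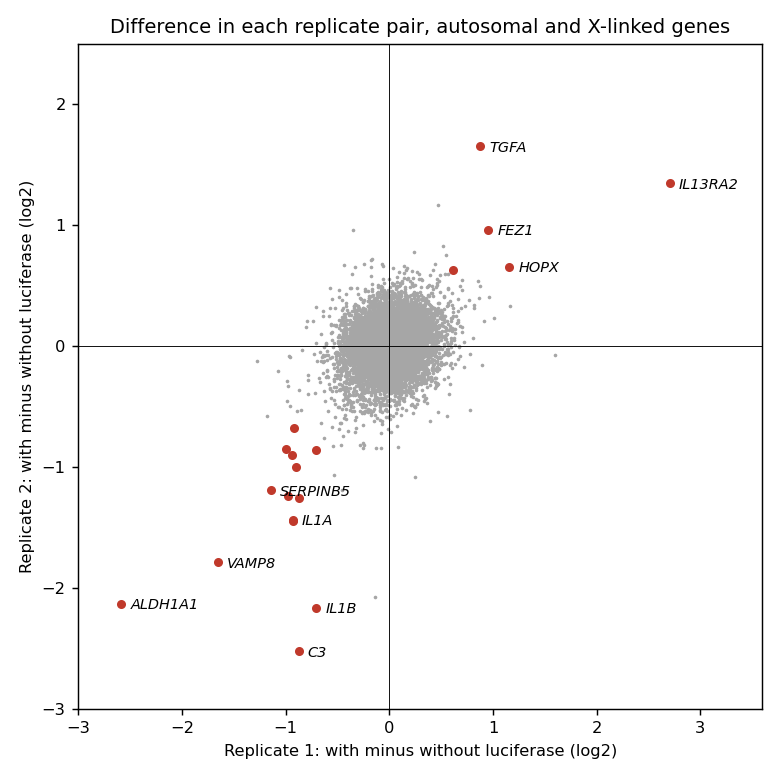
Difference between cells with and without luciferase (log2) in replicate 1 on the horizontal axis and in replicate 2 on the vertical axis, with 1 grey point per autosomal or X-linked gene and the 19 genes of the plot of signals in red. ALDH1A1 and VAMP8 lie far along the lower left diagonal with like differences in both pairs, IL1B and C3 lie further from 0 in replicate 2 than in replicate 1, and the grey points form a cloud around 0.

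The differences of the 2 pairs correlated across genes with r = 0.234, given as a description because genes are not independent and each pair shares an array group. The 2 differences had the same sign for 55.4% of genes, higher with luciferase for 29.9% and lower for 25.5%. Genes with at least a 1.5-fold difference in the same direction in both pairs numbered 5 higher and 16 lower, or 0.0418% and 0.134% of genes. The rule for naming genes took 14 of them whose brighter kind lay above the median signal, 4 higher and 10 lower. Beside those described, they included CALB2, a calcium-binding protein, at 6.12 and 5.77 with luciferase against 7.05 and 7.22 without it. SERPINB5, the serpin known as maspin, was at 7.28 and 6.96 with luciferase against 8.42 and 8.16 without it. UBE2L6, the conjugating enzyme of the interferon-induced modifier ISG15, was at 5.35 and 5.54 with luciferase against 6.27 and 6.21 without it.

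FBN2, a fibrillin of extracellular microfibrils, was at 7.69 and 8.55 with luciferase, against 8.59 and 9.55 without it. The differences of -0.90 and -1.0 were alike, while the replicates of one kind lay nearly as far apart as the kinds, and leaving out 1 control array gave -0.47 to -1.43. A dim second probe set differed by -0.40 and -0.44. With the replicate block these 4 genes had adjusted p-values of 0.00809 for CALB2, 0.00337 for SERPINB5, 0.0293 for UBE2L6 and 0.00809 for FBN2, and 0 of them were called by limma with array groups or without a block. The levels of FBN2 in the metastatic lines spanned a wide range, with means of 6.93 ± 1.11 in M1, 8.74 ± 0.17 in M4 and 4.56 ± 0.18 in M5 (SD, n = 3 each).

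The remaining calls with the replicate block, chosen after their values were seen, were lower with luciferase by 1.72-fold to 2.09-fold. They were NME5, a nucleoside diphosphate kinase family member of cilia, ADGRG2, an adhesion G protein-coupled receptor, AKAP12, a scaffold that binds protein kinase A, and PNPLA4, a lipid hydrolase that also acts on retinol esters. AKAP12 was at 4.74 and 4.99 with luciferase, against 5.67 and 5.89 without it, all below the median gene signal. PNPLA4 was at 6.90 and 6.81 with luciferase, against 7.60 and 7.67 without it. Each of these genes kept its 2 kinds apart, so that 15 of the 16 genes called with the replicate block did not overlap, CXCL3 being the exception. Over all genes 15.0% lay above and 13.4% below without overlap. The 16 genes were called by the difference on these same arrays, so their lack of overlap is no further evidence.

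Cell cycle genes differed by small amounts between the kinds, and more were higher than lower with luciferase. In the G2/M and mitosis list 19 genes were higher with luciferase in both pairs and 5 lower, and in the G1/S list 13 and 5. Over all genes 29.9% were higher in both pairs and 25.5% lower. Of 37 genes of G2/M and mitosis, 13 had both arrays with luciferase above both without it and 3 had them below, or 35.1% and 8.11%, against 15.0% and 13.4% of all genes. Their median difference was 0.0295 in the first pair and 0.182 in the second, so the list's shift was mainly in the second. FOXM1, a transcription factor of mitotic genes, was 1.29-fold higher and CCNA2, a cyclin of S phase and mitosis, 1.24-fold. A second CCNA2 probe set differed by -0.004 in the first pair and 0.25 in the second. CENPF, a kinetochore protein, and CDC25B, a phosphatase that activates cyclin-dependent kinases, were higher by 0.26 log2 units each. The dimmer CENPF probe sets had mean differences of 0.055 and 0.20. Of 38 genes of G1/S control and DNA replication, 8 lay above and 3 below in the same sense, or 21.1% and 7.89%. No gene of these lists was called in any of the 3 fits. At most 0.134% of all genes were called in any of them, so lists of this size need not hold a call.

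The list of the EGFR family, its ligands and MAPK feedback also held insulin-related genes such as IRS2, IGFBP3 and IGFBP4. It had 38 measured members, with a median difference of 0.0917 in the first pair and 0.0893 in the second. Both arrays with luciferase lay above both without it for 9 and below for 3. These were 23.7% and 7.89%, against 15.0% and 13.4% of all genes. TGFA was the list's single call with the replicate block, where 0.134% of all genes were called. IRS2, an adaptor of insulin receptor signalling, was at 9.97 and 9.93 with luciferase, against 9.26 and 9.47 without it. IGFBP3 and IGFBP4, secreted binders of insulin-like growth factors, were lower by 1.40-fold and 1.41-fold, without a call.

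The TGF-beta and BMP response list had 31 measured members and the highest median of the lists in the first pair, at 0.149, with 0.0783 in the second. In 7 of them both arrays with luciferase lay above both without it and in 3 below. These were 22.6% and 9.68%, against 15.0% and 13.4% of all genes. The list held no call, and at most 0.134% of all genes were called in any of the 3 fits. ENG, a TGF-beta co-receptor, was at 7.70 and 7.64 with luciferase, against 7.17 and 7.23 without it, though a dimmer probe set differed by -0.11. SMAD3, which carries the TGF-beta signal to the nucleus, was 1.54-fold higher by its brightest probe set, but that rested on the first pair (1.01 against 0.23), and its other probe sets differed by 0.052 to 0.22. FST, follistatin, which binds activins, had differences of 1.16 and 0.33, with the 2 replicates of each kind further apart than the kinds. The list's share above was not particular to it. The share was 40.0% of 10 endothelial, 28.6% of 14 fibroblast and stroma, and 21.4% of 14 haematopoietic markers. The shares below were 20.0%, 7.14% and 14.3%, and of 5 osteoblast markers 0 lay above and 1 below.

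**Figure D3:**
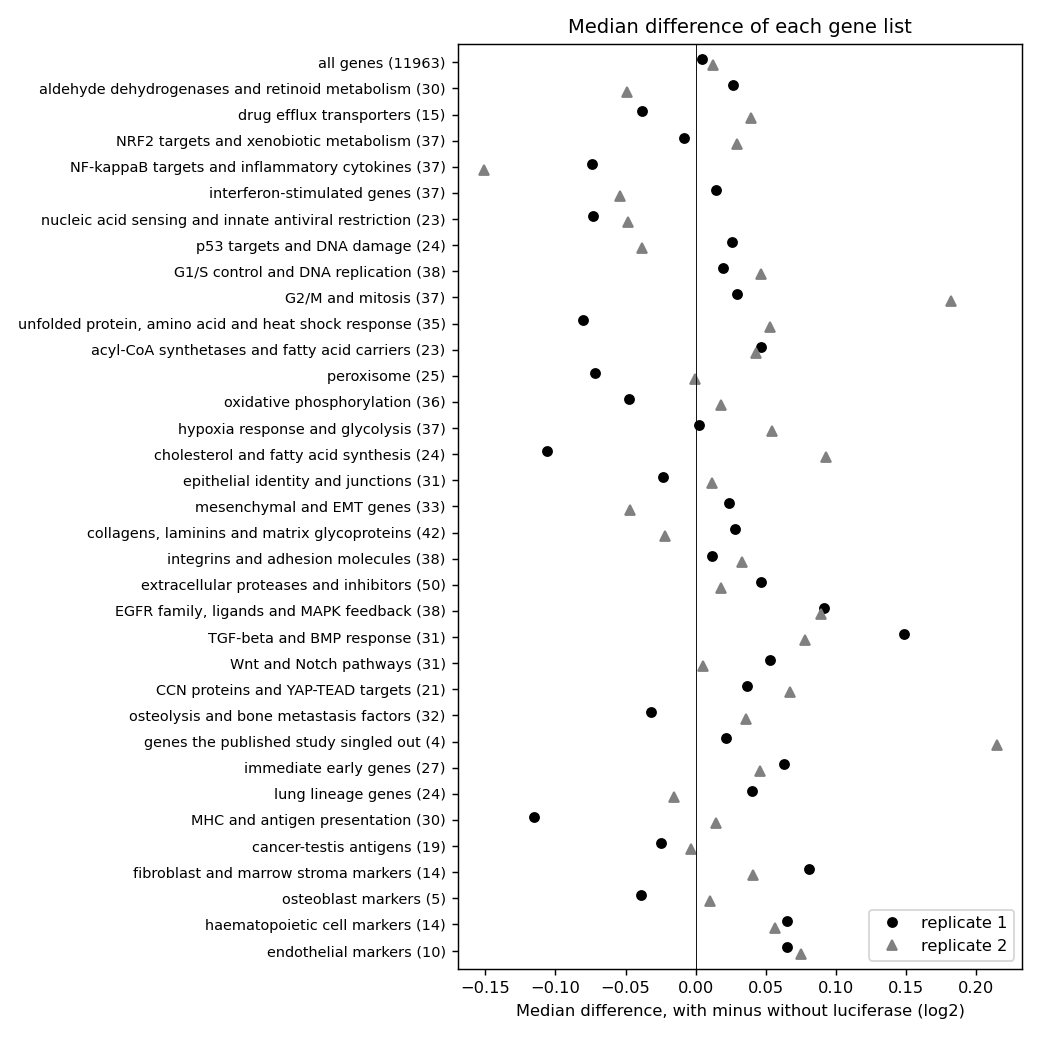
Median difference between cells with and without luciferase (log2) of each gene list, with circles for replicate 1 and triangles for replicate 2, the number of measured genes in brackets and all genes in the top row. The list of NF-kappaB targets lies to the left of 0 in both pairs and the EGFR and TGF-beta lists to the right in both, while G2/M genes lie far to the right in replicate 2 alone.

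Extracellular proteases and their inhibitors held 15 of 50 genes with both arrays with luciferase above both without it, or 30.0%, and 6 below, or 12.0%, against 15.0% and 13.4% of all genes. The list's median difference was 0.0466 and 0.0181 in the 2 pairs, while the median of the mean difference was -0.014. SERPINE2, an inhibitor of thrombin and plasminogen activators, was at 11.3 and 11.2 with luciferase, against 10.4 and 10.7 without it. The disintegrin metalloprotease ADAM12 was 1.48-fold higher by its brightest probe set, but its other probe sets differed by 0.34, 0.063 and -0.066 log2 units, and leaving out 1 control array gave 0.30 to 0.84. The metalloprotease inhibitor TIMP2 was 1.33-fold higher. SERPINB5, which is lower with luciferase, belongs to the same list. In the matrix list of 42 genes 9 lay above and 5 below, or 21.4% and 11.9%. ECM1 and the proteoglycan BGN were higher by 0.40 and 0.32 log2 units. Leaving out 1 control array gave 0.020 to 0.77 for ECM1, and the dimmer probe sets of BGN had mean differences of 0.17 and 0.055. FBN2 was the matrix list's single call with the replicate block, against 0.134% of all genes.

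Epithelial keratins differed in opposite directions. KRT7 was at 6.86 and 6.54 with luciferase, against 7.39 and 7.61 without it, though a dimmer second probe set differed by only -0.14. KRT19 was at 10.8 and 11.0 with luciferase, against 10.0 and 10.7 without it. Of 31 epithelial genes 3 lay above and 3 below, or 9.68% each, and of 33 mesenchymal genes 9 above and 3 below, or 27.3% and 9.09%, against 15.0% and 13.4% of all genes. Neither list held a call in any of the 3 fits, where at most 0.134% of all genes were called. In the mesenchymal list 11 genes were higher with luciferase in both pairs and 10 lower. Its median difference was 0.024 in the first pair and -0.0465 in the second, in opposite directions. Among adhesion molecules, the tetraspanin CD9 was 1.38-fold and the immunoglobulin-like ALCAM 1.37-fold higher, and the collagen receptor subunit ITGA2 was 1.36-fold lower. Notch genes included JAG1, a ligand, which differed by -0.69 log2 units by its brightest probe set and -0.84 by another, while its dimmest probe sets differed by 0.21 and 0.085, so the probe sets disagree. The receptor NOTCH1 was 1.37-fold lower, without a call.

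The lists closest to the chemistry of firefly luciferase and to a response to foreign nucleic acid held no call. At most 0.134% of all genes were called in any of the 3 fits, so a list of this size need not hold any. UBE2L6, the enzyme of ISG15 described above, was called with the replicate block but is on none of these lists. Of 23 acyl-CoA synthetases and fatty acid carriers, 1 lay above and 2 below, or 4.35% and 8.70% against 15.0% and 13.4% of all genes, and SLC27A2, a very long-chain acyl-CoA synthetase, was 1.24-fold lower. Of 25 peroxisomal genes 2 lay above and 3 below, or 8.0% and 12.0%. Nucleic acid sensors and antiviral restriction factors had 0 above and 4 below among 23, 17.4% being below, with median differences of -0.073 and -0.0481. Of 37 interferon-stimulated genes 3 lay above and 10 below, or 27.0%, against 13.4% of all genes, but the list's median difference was 0.0145 in the first pair and -0.0537 in the second. TRIM22, an antiviral ubiquitin ligase, differed by -0.54 and -0.83 but lay below the lower quartile on all 4 arrays. SAMHD1, which limits the supply of nucleotides to viruses, was 1.21-fold lower and not called. HERC5, the ligase of ISG15, was at 5.79 and 5.71 with luciferase, against 6.22 and 6.08 without it.

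Drug and stress genes showed no common direction. In 15 drug efflux transporters 2 lay above and 2 below, or 13.3% each against 15.0% and 13.4% of all genes, and ABCG2, known for the efflux of many drugs, differed by 0.35 and 0.04. Among 37 NRF2 targets and genes of xenobiotic metabolism 9 lay above and 6 below, or 24.3% and 16.2%. AKR1B10, an aldo-keto reductase, was at 11.2 and 11.0 with luciferase, against 10.5 and 10.6 without it. HK1, a hexokinase of the first step of glycolysis, was at 9.86 and 9.92 with luciferase, against 9.26 and 9.48 without it. STC1, a secreted glycoprotein induced by hypoxia, was 1.77-fold lower, by -0.46 in the first pair and -1.19 in the second, and its dimmer probe sets differed by -0.12 and -0.39. None of these genes was called.

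Osteolysis and bone metastasis factors, the subject of the wider study, were split. Of 32 measured, 5 had both arrays with luciferase above both without it and 6 had them below, or 15.6% and 18.8% against 15.0% and 13.4% of all genes, with median differences of -0.0315 and 0.036 in the 2 pairs. EDN1, the vasoactive peptide endothelin that also acts on osteoblasts, was at 7.58 and 7.78 with luciferase, against 7.12 and 7.26 without it. DKK1, a secreted inhibitor of Wnt signalling in bone formation, was 1.31-fold higher, by 0.62 in the first pair and 0.15 in the second. The prostaglandin synthase PTGS2 lay below the lower quartile on all 4 arrays. Of this list 0 genes were called in any of the 3 fits, where at most 0.134% of all genes were called. TGFB2, a ligand on the TGF-beta list, was 1.29-fold higher without a call, while its other probe sets differed by -0.071 to 0.38. Of 30 genes of MHC and antigen presentation 1 lay above and 6 below, with median differences of -0.115 and 0.0144 that point in opposite directions. The shares were 3.33% and 20.0%, and outside chromosome 5 only 3 of 27 lay below. Of 24 p53 targets 2 lay above and 5 below, or 8.33% and 20.8%.

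Genes of chromosome 5 were lower with luciferase as a group. Among 5981 genes above the median signal, the 270 on chromosome 5 had a median difference of -0.154 in the first pair and -0.0935 in the second, or 8.68% lower on average, whereas the other 22 chromosomes had medians of the mean difference between -0.00689 and 0.0299. Both pair differences were below 0 for 187 of the 270, or 69.3%, against 1451 of 5711 genes elsewhere, or 25.4%. In 10 blocks of 27 neighbouring genes, from SDHA near one end of the gene order to LMAN2 and beyond at the other, the median was below 0 in both pairs. The smaller of the 2 decreases exceeded that of each of the 200 blocks on other chromosomes in 9 of the 10. The chromosome was chosen after the data were seen, so these values carry no test.

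**Figure D4:**
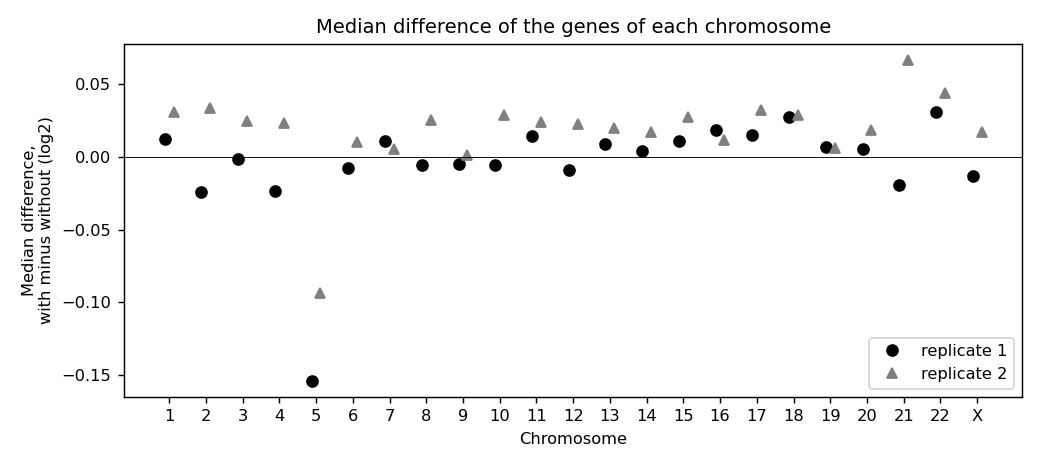
Median difference between cells with and without luciferase (log2) of the genes above the median signal on each chromosome, with circles for replicate 1 and triangles for replicate 2. Chromosome 5 lies at -0.154 and -0.0935, and the other chromosomes lie between -0.0239 and 0.0667 in either pair.

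Set against the median of the other genes on the same array, chromosome 5 genes were at -0.0321 and 0.0122 with luciferase, against 0.149 and 0.128 without it, on a scale centred over the 13 arrays. In M1 they were at -0.112, -0.104 and -0.0223, and in M4 at -0.156, -0.124 and -0.128. In M5 they were at 0.172, 0.0818 and 0.0704. M1 and M4 thus lay below both kinds of control except for the third M1 array, which lay between the 2 arrays with luciferase, and M5 lay above the cells with luciferase. Genes of chromosome 5 named here, beside FBN2 and NME5, included ERAP1, a peptidase that trims antigens, lower by 1.33-fold by its brightest probe set and with other probe sets at -0.56 to 0.18, HSD17B4, a peroxisomal enzyme of fatty acid oxidation, by 1.24-fold, and PLK2 and CCNG1, targets of p53, by 1.17-fold each, all without a call. FST and SPOCK1 lie on it too, and FST was higher with luciferase. Outside chromosome 5 the NF-kappaB list had a median of -0.0859, against -0.0961 with it. The MHC list had a median of -0.00918 outside it, against -0.0367 with it.

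**Figure D5:**
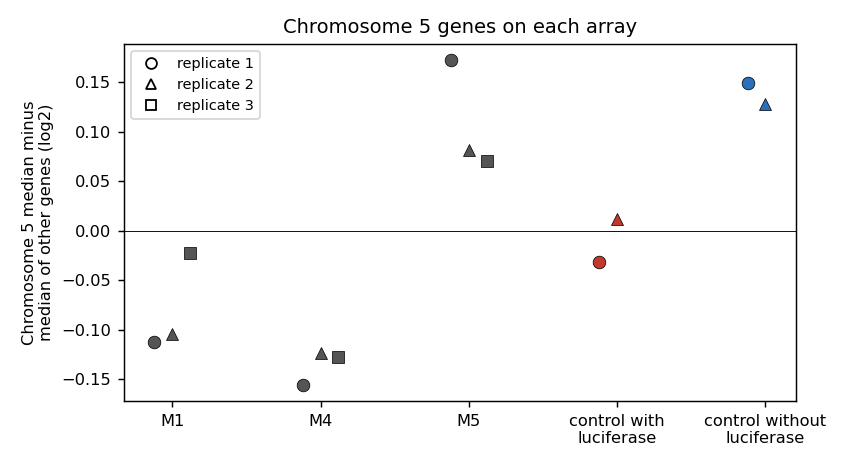
Median signal of chromosome 5 genes minus that of the other genes above the median signal (log2, each gene centred over the 13 arrays) on every array, by group, with circles, triangles and squares for replicates 1, 2 and 3. The red points of cells with luciferase lie at -0.0321 and 0.0122, below the blue points of cells without it at 0.149 and 0.128.

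The published study picked out 4 genes on these samples, and 0 of them were called between the kinds of control in any fit. At most 0.134% of all genes were called in any of the 3 fits, so a set of 4 need not hold any. TCF4, a transcription factor of the basic helix-loop-helix class, was at 5.67 and 5.73 with luciferase, against 5.61 and 5.47 without it, and its other probe sets differed by -0.28 to 0.24. MCAM, a cell adhesion molecule, was at 5.53 and 5.6 with luciferase, against 5.25 and 5.44 without it. PRKD3, a protein kinase D, was 1.17-fold lower with luciferase, and SUSD5, of sushi-domain proteins, lay below the lower quartile on all 4 arrays. Across all genes, the metastatic arrays that share an array group with controls lay about as far from either kind. The median absolute difference was 0.123 from the control with luciferase and 0.125 from the control without it for M1 replicate 1, 0.119 and 0.131 for M1 replicate 2, and 0.117 and 0.121 for M4 replicate 1. M5 replicate 1 was at 0.156 from the control with luciferase and 0.140 from the control without it.

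Control probe sets differed between the kinds as well. Those for 18S ribosomal RNA were lower with luciferase, with differences of -0.49 and -0.53 in the first pair and -0.35 and -0.47 in the second. The median of 18 hybridisation spike-in probe sets differed by -0.29 and -0.186, and that of 27 labelling spike-in probe sets by -0.291 and -0.0413. The part of these in the differences above was not tested. GAPDH signal at the 3' end minus that at the 5' end, a measure of RNA integrity, was 0.163 and 0.146 with luciferase, against 0.143 and 0.05 without it. Since each array measures RNA of a whole culture, fewer cells expressing a gene and less RNA per cell cannot be told apart for any gene above.

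Among 2108 probe sets for which no gene is listed here, 2 differed by at least 1.5-fold in the same direction in both pairs. Probe set 202627_s_at was at 6.63 and 6.63 with luciferase, against 5.55 and 5.25 without it. Probe set 210538_s_at was at 4.49 and 4.74 with luciferase, against 5.15 and 5.39 without it.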

How the data were processed

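Total RNA profiles of 13 Affymetrix arrays were analysed from the deposited table of log2 signals for 22277 probe sets, which the authors computed using RMA (per the submitters' processing notes). RMA quantile-normalizes arrays and compresses low signals, so folds of dim genes are understated. Its version is not given in the sources used here. Scanned images were not used. The arrays' number limits the precision.

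After removing 62 control probe sets, 19064 named 1 gene, 1043 several and 2108 none. The probe set with the highest mean stood for its gene (11963 genes, 11954 found in RefSeq GRCh38.p14 for chromosomes). limma 3.58.1 (R 4.3.3) fitted 5 group means over 13 arrays, without covariates. Array groups came from Ward clustering of the control probe sets. A replicate block over the 4 control arrays was an alternative, as were other scalings, probe set choices, filters, thresholds and leaving out each array. Numbers pair arrays in the data only: deviations of same-numbered arrays correlated with r = 0.526, and the labels do not say that a number marks a shared batch. Members and gene lists were chosen with earlier results of these data known. Named genes were those called, the 10 largest rises and falls with at least a 1.5-fold difference in both pairs, up to 4 members per list and the study's 4 genes; others are marked as chosen after their values were seen. Code was tested on simulated data. Probe sets of a gene can share sequence with paralogs.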

Additional observations from a re-analysis of the deposited data

How the results depend on the processing

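Without a block 0 genes were called, and the count was also 0 in 14 of 18 other settings, among them spike-in array groups, median centring and leaving out each control array in turn (136 to 204 genes at an unadjusted p under 0.05 in these last). It was 16 with the replicate block over the 4 control arrays, 1 with the replicate block over all 13 arrays, 2 with array groups from the control probe sets and 1 with quantile normalization. With array groups as a block, chosen for a closer set of alternatives after seeing the data, the count of 2 was 16 on the 4 control arrays alone, 4 with the mean of a gene's probe sets, 15 with an intensity trend and robust prior, and 1 to 2 when leaving out each control array. The cause of these moves was not tested. Replicate numbers are shared by the control groups but not stated to mark a batch, and with only 2 pairs the block cannot be called the better design. Sign changed in 5 gene results: leaving out 1 control array gave ABCG2 log2 differences of -0.043 to 0.44, FST -0.321 to 1.81, IL6 -1.07 to 0.028 and SUSD5 -0.017 to 0.42, and TCF4 was -0.039 with the mean of its probe sets. Each kind holds 2 arrays, and signals below the lower quartile of the array limit what can be read from dim genes.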
